A study of Homo sapiens with 6 samples.

Results

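The genes examined here were 10 core genes of the cell cycle engine, measured by RNA-seq in OVCAR3 cells. They comprised the E cyclins CCNE1 and CCNE2, the D cyclins CCND1, CCND2 and CCND3, the cyclins CCNA2 and CCNB1, the cyclin-dependent kinases (CDKs) CDK1 and CDK2, and the phosphatase CDC25A. They were chosen by symbol, and each of the 10 matched a single locus among the 26793 loci with a symbol and the 47577 loci of the table. OVCAR3 is an established line of high-grade serous ovarian adenocarcinoma, so every library came from the same line. PolyA RNA was sequenced from 3 libraries of cells exposed to the solvent DMSO for 6 h and from 3 libraries of cells exposed to 200 nM THZ531 for 6 h. THZ531 is a covalent inhibitor of the transcriptional kinases CDK12 and CDK13. The sample titles name THZ531, but the description of the treatment in the labels gives THZ1, another covalent CDK inhibitor. The samples were assigned by title, and the methods of the study also name THZ531 for this RNA-seq, at the same dose and time. The series text calls the replicates biological repeats.

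D cyclins partner with CDK4 and CDK6 and start the phosphorylation of the retinoblastoma protein in G1, and E cyclins with CDK2 complete it as cells enter S phase. Cyclin A2 works with CDK2 and then CDK1 through S phase and G2, and cyclin B1 with CDK1 drives entry into mitosis, while CDC25 phosphatases remove the inhibitory phosphates that WEE1 and PKMYT1 place on the kinases. CCNE1 is amplified in OVCAR3, and its gain is a recurrent event of serous ovarian cancer.

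Within 6 h of THZ531, CDC25A rose 1.88-fold, and it was the only member that passed the call used here, a fold change of at least 1.5 with an unadjusted p of at most 0.05. By that rule 0 of the 10 members fell, although CCNB1 and CDK2 had an unadjusted p below 0.05 at smaller fold changes. Over all 17568 expressed loci 39.5% were called, 15.7% in the upward and 23.9% in the downward direction. In 5 of the 10 members (CCNE1, CCNB1, CDK1, CDK2 and CDC25A) the 3 treated libraries did not overlap the 3 DMSO libraries, against 71.7% of all expressed loci. The same 5 had an adjusted p of at most 0.05 (limma, Benjamini-Hochberg over all expressed loci), which 68.6% of all expressed loci had. On the recovered reads edgeR and DESeq2 also called 1 member higher and 0 lower, beside 39.1% and 38.6% of all expressed loci. The members' log2 fold changes ran from -0.28 for CDK2 to 0.91 for CDC25A, with a median of 0.08 beside -0.0071 over all expressed loci. In a bulk RNA sample, fewer cells in a phase of the cycle and less of an RNA per cell cannot be told apart.

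**Figure D1:**
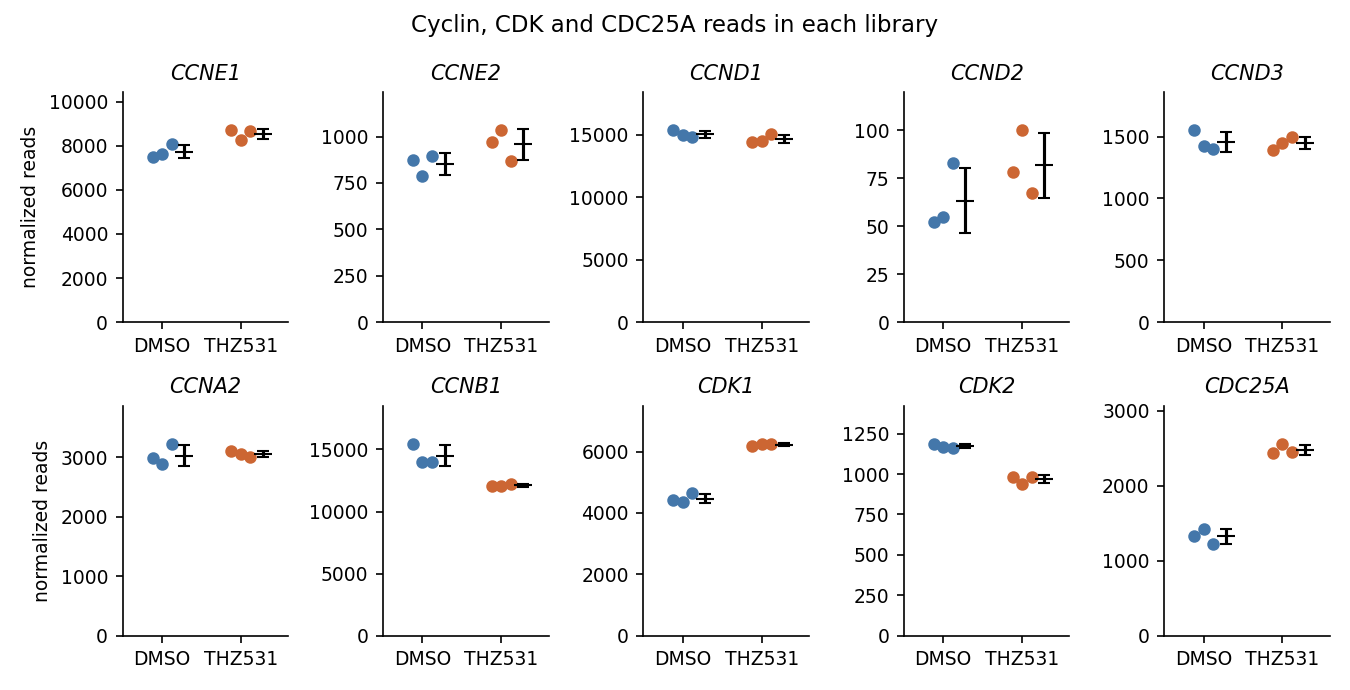
Normalized reads (linear axes from 0) of the 10 genes in each of the 3 DMSO (blue) and 3 THZ531 (orange) libraries, with the mean and SD of each group as a bar beside the points. CDC25A sits between 1215 and 1418 in DMSO and between 2437 and 2556 after THZ531, whereas the points of CCND1, CCND3 and CCNA2 overlap between the groups.

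All values are reads normalized by the authors with DESeq2, and they are not corrected for gene length. A library held 53054048 to 70986130 reads counted on genes, and the members rested on at least 764 reads in every library, with the exception of CCND2, which had as few as 59. The deposited scaling left the median log2 fold change of all expressed loci at -0.0071. Scaling the libraries to the same total moved it to -0.25, and scaling them to the ribosomal protein gene RPL34, the RNA (L34) that served as reference in the study's qPCR, moved it to -0.50. RPL34 itself was 12999 ± 1180 in DMSO and 18247 ± 86.8 after THZ531 (SD, n = 3). With the same total 1 member (CDC25A) was called higher and 0 lower, beside 9.38% and 32% of all expressed loci (41.3% together). With RPL34 0 were higher and 2 lower (CCNB1 and CDK2), beside 6.14% and 42.8% (49% together). Of the members, CCNE1, CCNE2, CCND2, CCNA2 and CDK1 took the opposite sign under another scaling, and each case is given with its value.

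CCNE1 encodes cyclin E1. The locus covers chr19:29811991-29824312 of hg38 on the plus strand and was read at 7495, 7622 and 8060 in the DMSO libraries and at 8699, 8258 and 8660 after THZ531. The treated libraries were all above the DMSO libraries, by a margin of the same order as the spread within each group. The mean was 7726 ± 296 in DMSO and 8539 ± 244 after THZ531 (SD, n = 3), a log2 difference of 0.14 (95% interval 0.06 to 0.23; adjusted p = 0.00468, limma with Benjamini-Hochberg), and that difference was -0.10 with libraries scaled to the same total and -0.35 with RPL34. The direction for CCNE1 was thus set by the scaling, and under none of the 3 scalings did it reach a fold change of 1.5.

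The 170 bases before the RefSeq start of CCNE1 are shown because they can be set against those of the other members whose groups did not overlap, CCNB1, CDK1 and CDC25A, which follow (CDK2 has no entry in the promoter table used). Capitals mark every match, on either strand, to 4 short motifs of cell cycle and housekeeping promoters. These were the GC box GGGCGG, the CCAAT box CCAAT, the cell cycle homology region TTTGAA and 4 forms of the E2F site, TTTCCCGC, TTTGGCGC, TTTCGCGC and TTTGCCGC. Among the 35116 RefSeq promoter windows of 300 bases (GRCh38.p14, from 250 before to 50 after each start), 45.0% held a GC box, 34.6% a CCAAT box, 15.2% the cell cycle homology region and 3.31% any of the 4 E2F forms. In CCNE1 the capitals are 5 GC boxes on the strand of the gene, and the letters of the other motifs were not found in its window. Only these exact letters were searched, here and below. Other forms of a site are not marked, so its absence is not shown.
CCNE1, chr19:29811821-29811990, plus strand: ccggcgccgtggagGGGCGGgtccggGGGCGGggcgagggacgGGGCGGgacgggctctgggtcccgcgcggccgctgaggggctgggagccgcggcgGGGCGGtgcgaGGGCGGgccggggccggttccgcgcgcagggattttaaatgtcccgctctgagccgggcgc

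CCNE2, the other E cyclin, binds the same kinase and lies on chromosome 8 (94880224 to 94895201, minus strand). Its values were 872, 788 and 897 in DMSO and 971, 1033 and 869 after THZ531, so that the groups overlapped. The log2 difference was 0.17 (95% interval -0.01 to 0.34; adjusted p = 0.0794 by limma with Benjamini-Hochberg) with the deposited scaling, -0.08 with the same total and -0.33 with RPL34. With the deposited scaling CCNE2 was therefore not shown to change, and that interval leaves out any change as large as 1.5-fold. With RPL34 the lower level of CCNE2 had an adjusted p of 0.0138 (limma with Benjamini-Hochberg).

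Among the D cyclins, CCND1 was the most abundant. The locus (chr11:69641156-69654474, plus strand) gave 15370, 14984 and 14836 in DMSO and 14406, 14550 and 15048 after THZ531. The highest treated library lay above 2 of the 3 DMSO libraries, and the log2 difference was -0.04 (95% interval -0.11 to 0.03; adjusted p = 0.334, limma with Benjamini-Hochberg). It was lower in the other scalings, at -0.28 with the same total (adjusted p = 4.84e-06) and -0.53 relative to RPL34 (adjusted p = 5.21e-06, both limma with Benjamini-Hochberg). Neither of these is a fold change of 1.5.

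CCND3 (chr6:41934934-42048894, minus strand) also stayed within its spread with the deposited scaling, at 1550, 1423 and 1400 in DMSO and 1394, 1448 and 1493 after THZ531. The log2 difference was -0.012 (95% interval -0.14 to 0.12; adjusted p = 0.872, limma with Benjamini-Hochberg). It was -0.25 for the same total (adjusted p = 0.00246) and -0.50 for RPL34 (adjusted p = 4.90e-05, both limma with Benjamini-Hochberg). With the deposited scaling its sign turned without DMSO replicate 1, to 0.033, and without THZ531 replicate 1, to 0.014. The sign of CCND3 in that scaling thus rests on single libraries.

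CCND2 (chr12:4273762-4305353, plus strand) was nearly silent. It was read at 52.4, 54.7 and 83.0 in DMSO and 78.1, 100.03 and 67.1 after THZ531, from 59 to 104 reads a library. The groups overlapped, and the log2 difference of 0.37 had a 95% interval from -0.17 to 0.92 (adjusted p = 0.209, limma with Benjamini-Hochberg). The interval of CCND2 includes a rise of 1.5-fold and leaves out a fall of that size, and leaving out single libraries moved the difference between 0.22 and 0.58, the latter without DMSO replicate 3. With RPL34 it was -0.11.

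CCNA2, which encodes cyclin A2, stayed within its spread with the deposited scaling. Its values were 2980, 2883 and 3226 in DMSO and 3107, 3055 and 3008 after THZ531 (chr4:121816444-121823916, minus strand), and all 3 treated values lay inside the DMSO range. The log2 difference was 0.014 (95% interval -0.09 to 0.12; adjusted p = 0.812, limma with Benjamini-Hochberg), and -0.021 without DMSO replicate 2. It became -0.23 when the libraries had the same total (adjusted p = 6.49e-04) and -0.48 with RPL34 (adjusted p = 1.32e-04, both limma with Benjamini-Hochberg).

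CCNB1, the mitotic cyclin B1, was lower after THZ531. The DMSO libraries gave 15451, 14017 and 14017 and the treated libraries 12042, 12050 and 12249 (chr5:69167121-69178245, plus strand). The groups did not overlap, and DMSO replicate 1 stood above the other DMSO libraries. The mean of 14495 ± 828 in DMSO was 1.2-fold that of 12114 ± 117 after THZ531 (SD, n = 3), a log2 difference of -0.26 (95% interval -0.34 to -0.17; adjusted p = 3.26e-05, limma with Benjamini-Hochberg). CCNB1 was lower under every scaling run, by a fold change under 1.5 with the same total (log2 -0.50) and past it with RPL34 (-0.75). Its 170 bases, shown for comparison with CCNE1, hold 2 CCAAT boxes on the strand of the gene and a GC box on the other strand.
CCNB1, chr5:69166980-69167149, plus strand: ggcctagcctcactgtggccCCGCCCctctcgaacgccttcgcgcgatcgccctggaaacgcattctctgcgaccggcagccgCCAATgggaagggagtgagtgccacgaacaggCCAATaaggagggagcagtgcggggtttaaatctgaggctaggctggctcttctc

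The 2 kinases differed in opposite directions with the deposited scaling. CDK1, the kinase of cyclins A and B, was higher in each treated library (6188, 6248 and 6254) than in any DMSO library (4413, 4353 and 4649; chr10:60778331-60794852, plus strand). The fold change of 1.39 stayed under the threshold of 1.5, with a log2 difference of 0.48 (95% interval 0.39 to 0.57; adjusted p = 3.16e-08, limma with Benjamini-Hochberg), 0.24 with the same total and -0.014 relative to RPL34. The higher level of CDK1 was thus seen under the first 2 scalings and not relative to RPL34.

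The CDK1 sequences show the 170 bases before its RefSeq start and a stretch of 30 bases after it that holds an E2F match (TTTCGCGC), 20 bases after the start. Before the start there are a cell cycle homology region, a CCAAT box and a GC box on the other strand, while a further RefSeq start of CDK1 places the same E2F form 128 bases upstream.
CDK1 before the start, chr10:60778161-60778330, plus strand: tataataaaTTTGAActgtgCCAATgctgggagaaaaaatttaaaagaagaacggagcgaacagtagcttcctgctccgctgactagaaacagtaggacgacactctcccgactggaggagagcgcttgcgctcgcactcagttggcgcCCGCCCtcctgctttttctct
CDK1 after the start, chr10:60778339-60778368, plus strand: tttcctctttcTTTCGCGCtctagccaccc

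CDK2, the kinase of cyclins E and A, was lower in each treated library (981, 939 and 984) than in any DMSO library (1187, 1170 and 1163; chr12:55966818-55972789, plus strand). The DMSO mean was 1.21-fold the treated mean, a log2 difference of -0.28 (95% interval -0.41 to -0.14; adjusted p = 9.56e-04, limma with Benjamini-Hochberg). CDK2 kept this direction under the same total (-0.52) and RPL34 (-0.77), and only the latter passed the fold change of 1.5.

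CDC25A, the phosphatase that activates CDK2 and CDK1, showed the largest log2 difference of the 10 members with the deposited scaling and the same total, but not with RPL34. It was read at 1332, 1418 and 1215 in DMSO and at 2437, 2556 and 2445 after THZ531 (chr3:48157146-48188417, minus strand). The lowest treated library was above the highest DMSO library by several times the range of either group, with means of 1322 ± 102 and 2479 ± 66.8 (SD, n = 3). The log2 fold change was 0.91 (SE 0.06, 95% interval 0.78 to 1.04; adjusted p = 2.12e-09, limma with Benjamini-Hochberg), and it ran from 0.85 to 0.96 when each library was left out. CDC25A remained higher under the same total (0.67, called) and RPL34 (0.42, under the fold change of 1.5).

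The bases before the start of CDC25A hold an E2F match (TTTGGCGC) 44 bases upstream, 2 CCAAT boxes on the other strand and a GC box 22 bases upstream, and the leading capitals CC end a further GC box that begins outside the stretch. Of the 6 members with RefSeq promoter entries (CCNE1, CCND3, CCNA2, CCNB1, CDK1 and CDC25A), CDC25A and CDK1 held an E2F form, and the windows of the other 4 did not contain these letters. A match is a stretch of letters, and binding was not measured.
CDC25A, chr3:48188418-48188587, minus strand: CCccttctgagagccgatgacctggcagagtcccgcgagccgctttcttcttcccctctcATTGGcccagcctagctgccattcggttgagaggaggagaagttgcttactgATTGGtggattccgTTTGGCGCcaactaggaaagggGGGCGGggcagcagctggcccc

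**Figure D2:**
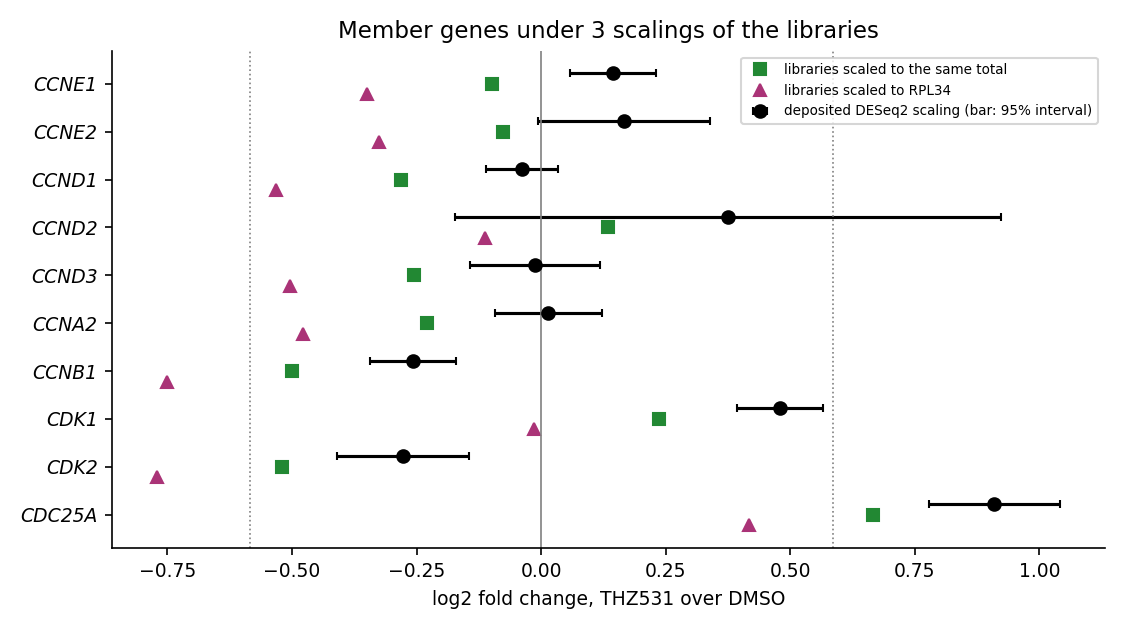
Log2 fold change (THZ531 over DMSO, horizontal axis) of each member with the deposited DESeq2 scaling (circles with 95% intervals), with the libraries scaled to the same total (squares) and with the libraries scaled to RPL34 (triangles). The dotted lines mark a fold change of 1.5, which CDC25A passed with the deposited scaling and the same total, and CCNB1 (-0.75) and CDK2 (-0.77) passed with RPL34.

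To compare levels between genes, the normalized values were divided by the exon length of the Ensembl canonical transcript in GENCODE v44. In DMSO the level per kilobase was highest for CCNB1 (7144 ± 408), followed by CCNE1 (3954 ± 152), CCND1 (3554 ± 65.1), CDK1 (2367 ± 82.7), CCNA2 (1103 ± 64.3), CCND3 (720 ± 39.7), CDK2 (524 ± 5.56), CDC25A (344 ± 26.5), CCNE2 (319 ± 21.4) and CCND2 (9.76 ± 2.62; SD, n = 3). CDC25A and CCNE2 were the only neighbours in this order whose DMSO libraries overlapped. CCNB1, CCNE1 and CCND1 stood above the 92nd percentile of the 14501 expressed loci with a length, at 96.1, 93.3 and 92.4, while CCND2 stood at 6.95. Thus cyclin E1 RNA exceeded cyclin E2 RNA by an order of magnitude, and cyclin D1 was the prevailing D cyclin. After THZ531 the per-kilobase level of CDC25A was 645 ± 17.4, above that of CDK2 (432 ± 11.3), and that of CDK1 was 3298 ± 19.4, close under that of CCND1 (3461 ± 79.5).

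The ratio of 2 genes in the same library does not depend on how the libraries were scaled, and 5 such ratios among the members were tested with exact two-sided permutation tests, for which 3 libraries against 3 cannot give a p below 0.1. CDK1 exceeded CDK2 by a log2 ratio of 1.89, 1.89 and 2.00 in DMSO and of 2.66, 2.73 and 2.67 after THZ531. The groups did not overlap, and the mean rose from 1.93 ± 0.06 to 2.69 ± 0.04, a 1.69-fold shift toward CDK1 (exact permutation p = 0.1, adjusted over the 5 ratios 0.25). CCNA2 relative to CCNB1 also did not overlap between the groups, with a mean log2 ratio of -2.26 ± 0.13 in DMSO and -1.99 ± 0.04 after THZ531, a 1.21-fold shift toward CCNA2 (exact permutation p = 0.1, adjusted 0.25). These are the smallest p-values the design can give, and neither passes 0.05.

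For the other 3 ratios the groups overlapped. The log2 ratio of CCNE1 to CCNE2 was 3.18 ± 0.09 in DMSO and 3.16 ± 0.16 after THZ531 (exact permutation p = 0.9), so no shift between the E cyclins was detectable. CCND1 to CCND3 was 3.37 ± 0.05 and 3.34 ± 0.02 (exact permutation p = 0.4), and CCND1 to CCND2 was 7.90 ± 0.38 and 7.49 ± 0.31 (exact permutation p = 0.3), the latter limited by the few reads of CCND2.

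**Figure D3:**
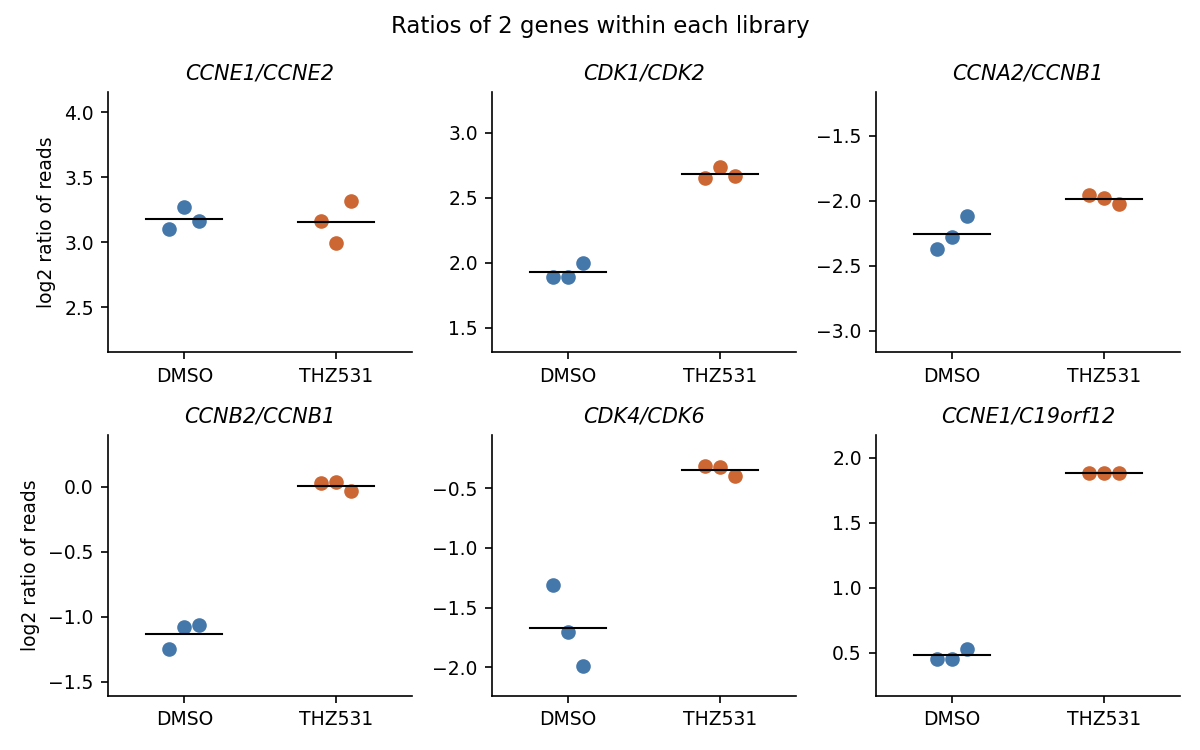
Log2 ratio of the reads of 2 genes in each DMSO (blue) and THZ531 (orange) library, with lines at the group means and a vertical axis that does not start at 0. CCNE1/CCNE2 overlaps between the groups, CDK1/CDK2 moves from 1.93 to 2.69, and CCNB2/CCNB1, CDK4/CDK6 and CCNE1/C19orf12, which were chosen after their values were seen and not tested, move by 1.14, 1.32 and 1.41.

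Of 58 other genes around these cyclins and kinases, on 6 lists written by hand, 55 were expressed. Among these 9 rose and 10 fell, 34.5% together, beside 39.5% of all expressed loci. Under the same total 5 rose and 14 fell, beside 9.38% and 32% of all expressed loci. Under RPL34 3 rose and 23 fell, beside 6.14% and 42.8%. The balance of directions thus moved with the scaling, as it did over all expressed loci. 

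Among 9 further interphase and mitotic cyclins and CDKs, 2 rose, 3 fell and 4 were not called, beside 15.7% and 23.9% of all expressed loci that rose and fell. CDK6, a partner kinase of the D cyclins, was read at 19618, 20675 and 23133 in DMSO and at 8444, 8816 and 9392 after THZ531, a 2.38-fold fall (log2 -1.25, SE 0.05; adjusted p = 1.14e-11, limma with Benjamini-Hochberg). CDK4, the other partner of the D cyclins, was 6689 ± 1083 in DMSO and 6994 ± 161 after THZ531 (SD, n = 3) with overlapping libraries (log2 0.08, -0.17 with the same total and -0.42 with RPL34), its DMSO replicate 1 lying above all others. The log2 ratio of CDK4 to CDK6, chosen after the values were seen and not tested, went from -1.67 ± 0.34 to -0.34 ± 0.05, and every treated library lay above every DMSO library.

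CCNB2, the sister gene of CCNB1, rose where CCNB1 did not. Its values were 6508, 6630 and 6697 in DMSO and 12259, 12346 and 11966 after THZ531, a 1.84-fold increase (log2 0.88; adjusted p = 6.20e-12, limma with Benjamini-Hochberg), which was 0.64 with the same total and 0.39, under the fold change of 1.5, with RPL34. The log2 ratio of CCNB2 to CCNB1, chosen after the values were seen and not tested, was between -1.25 and -1.07 in DMSO and between -0.03 and 0.03 after THZ531, so that both B cyclins gave similar read numbers in the treated cells. The 170 bases before the RefSeq start of CCNB2 are shown against those of CCNB1. They hold 3 CCAAT boxes, the last of which overlaps a GC box of the other strand, and the letters TTTGAA. The CCNB1 window held no match to these letters. Other forms of the cell cycle homology region were not searched, so its absence from CCNB1 is not shown.
CCNB2, chr15:59104976-59105145, plus strand: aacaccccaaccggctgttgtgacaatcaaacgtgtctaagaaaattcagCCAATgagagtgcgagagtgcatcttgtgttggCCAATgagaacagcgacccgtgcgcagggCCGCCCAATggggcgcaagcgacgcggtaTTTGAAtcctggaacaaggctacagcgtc

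The remaining calls on that list were CCNA1, the second cyclin A gene, which rose 2.50-fold from 319 ± 18.2 to 799 ± 35.6, CDK3, which fell from 133 ± 24.9 to 76.6 ± 14, and CCNF, a cyclin that serves as the substrate receptor of a ubiquitin ligase, which fell from 1477 ± 68.3 to 943 ± 53.7 (SD, n = 3). CCNF lay outside the naming rule and was named after its values were seen. CCNA1 was thus called higher and CCNA2 was not, a difference that was not tested, and the level of CCNA1 per kilobase in DMSO (184 ± 10.5) was below that of CCNA2 (1103 ± 64.3).

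Of 8 CDK inhibitor genes, 3 rose, none fell and 5 were not called, against 15.7% and 23.9% of all expressed loci. CDKN1C, which encodes p57, was read at 207, 204 and 148 in DMSO and at 753, 765 and 745 after THZ531, a 4.07-fold increase (log2 2.03; adjusted p = 8.36e-10, limma with Benjamini-Hochberg). CDKN2D, an inhibitor of CDK4 and CDK6, rose 2.90-fold from 260 ± 29.2 to 753 ± 54.7, and CDKN1A, which encodes p21, rose 1.94-fold from 388 ± 32.7 to 750 ± 32.6 (SD, n = 3). The log2 fold changes of CDKN1C, CDKN2D and CDKN1A were 1.53, 1.04 and 0.46 with RPL34, the last of them under the fold change of 1.5. CDKN1B, which encodes p27, was 3639 ± 309 in DMSO and 3120 ± 196 after THZ531 and was not called. With RPL34 CDKN1B was among 2 inhibitors that passed downward, beside 42.8% of all expressed loci.

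On the list of kinases and phosphatases that switch the CDKs, CDC25A's relatives went the other way. CDC25B fell 1.67-fold (11305, 10613 and 10346 in DMSO and 6238, 6449 and 6628 after THZ531; log2 -0.74, adjusted p = 2.80e-10, limma with Benjamini-Hochberg). CDC25C fell 1.55-fold from 212 ± 13.2 to 140 ± 40.8, a call that was lost without THZ531 replicate 2 (log2 -0.46). CDC25A relative to CDC25B went from a mean log2 ratio of -3.03 ± 0.11 to -1.38 ± 0.05, a 3.14-fold shift that was not tested. CCNH, the cyclin of the CDK-activating kinase, rose 1.63-fold with the deposited scaling, and it was under the fold change of 1.5 with the same total (log2 0.46) and RPL34 (0.21). CCNH shares 80446 bases with RASA1 on the opposite strand (log2 0.43 for RASA1) and CDC25C shares 799 bases with FAM53C (4492 in DMSO and 4088 after THZ531), so that reads of these stretches cannot be assigned with certainty either. The CCNH locus spans 101460 bases but its canonical transcript only 18657, so most of the shared bases lie outside that transcript. The inhibitory kinase genes WEE1 and PKMYT1 had log2 differences of 0.42 and -0.56, and the checkpoint kinase gene CHEK1 one of 0.47, none of them called, and with RPL34 WEE1 (-0.077) and CHEK1 (-0.028) took the opposite sign while PKMYT1 was called lower (-1.05).

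Among 14 genes of cyclin turnover, 3 rose and 1 fell (28.6% together), beside 15.7% and 23.9% of all expressed loci (39.5% together). CUL1, the scaffold of the SCF ubiquitin ligase that marks cyclin E and CDK inhibitors for destruction, fell 2.83-fold from 6464 ± 288 to 2288 ± 134 (SD, n = 3; adjusted p = 1.08e-12, limma with Benjamini-Hochberg). Its partners SKP1 (14182 ± 207 to 22868 ± 193) and SKP2 (2945 ± 107 to 4549 ± 165) and the CDK-binding protein gene CKS2 (5536 ± 138 to 9266 ± 278) were called higher with the deposited scaling, at log2 0.69, 0.63 and 0.74, and none of these 3 was called with the same total (0.45, 0.38 and 0.50). FBXW7, the receptor for cyclin E, was 495 ± 20.1 and 428 ± 17.6 and was not called. An unnamed locus of 897 bases inside CUL1 (chr7:148730666-148731562), 32910 bases from the start of the gene, went from 138 ± 10.1 to 2171 ± 79.0, a log2 difference of 3.97, and its strand is not given.

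Of 10 pocket protein and MuvB genes, 0 rose and 3 fell, the latter near the 23.9% of all expressed loci that fell. RB1, which encodes the retinoblastoma protein that cyclin D and cyclin E kinases phosphorylate, was read at 1811, 1847 and 2005 in DMSO and at 971, 1080 and 1069 after THZ531, a 1.81-fold fall (log2 -0.86; adjusted p = 7.86e-09, limma with Benjamini-Hochberg). LIN52 fell 2.18-fold from 1008 ± 82.4 to 461 ± 27.2, and LIN37 fell 1.69-fold from 417 ± 103 to 241 ± 9.70, of which the latter was no longer called without DMSO replicate 1 (log2 -0.58). LIN52 and LIN37 are subunits of the MuvB core, which represses or activates cell cycle genes with its partners.

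**Figure D4:**
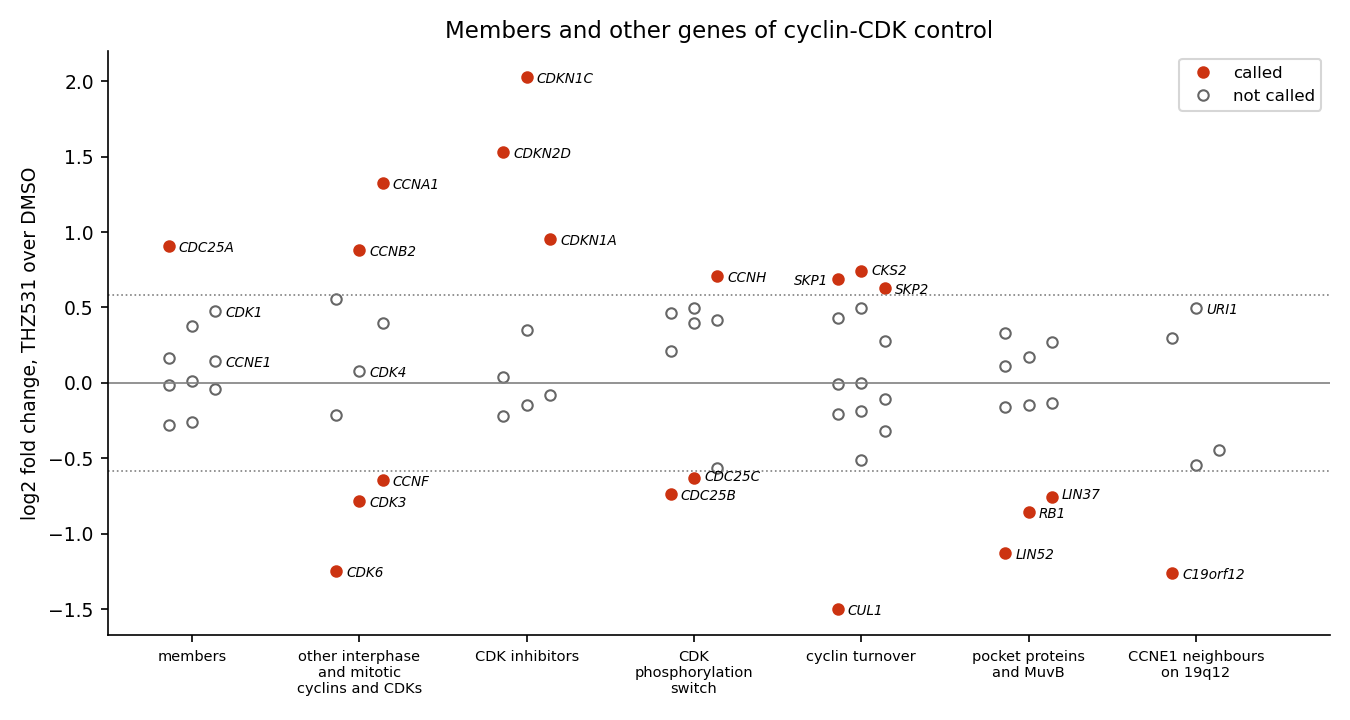
Log2 fold change (THZ531 over DMSO) with the deposited scaling of the 10 members and of the expressed genes on the 6 other lists, 1 point a gene, spread sideways for legibility. Filled points passed a fold change of 1.5 (dotted lines) at an unadjusted p of at most 0.05, which 1 of the 10 members and 19 of the 55 listed genes did, beside 39.5% of all expressed loci.

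The genes next to CCNE1 on chromosome 19 lay on both sides of it in their response. Of 8 neighbours listed, VSTM2B, ZNF536 and TSHZ3 had no read in any library, which allows up to 3 reads a library, and 5 were expressed. C19orf12, in the file's coordinates at 29698886 to 29715789 and thus upstream of CCNE1, was read at 5472, 5564 and 5596 in DMSO and at 2355, 2236 and 2347 after THZ531, a 2.40-fold fall (log2 -1.26; adjusted p = 1.19e-12, limma with Benjamini-Hochberg). POP4, a subunit of ribonuclease P, had a log2 difference of -0.55 and PLEKHF1 of -0.45, both under the fold change of 1.5 with the deposited scaling and past it with the same total (-0.79 and -0.69). UQCRFS1, a subunit of respiratory complex III, had a difference of 0.30, which was -0.19 with RPL34. On the other side of CCNE1, URI1, a prefoldin-like chaperone gene, was 17270 ± 518 in DMSO and 24384 ± 593 after THZ531 (log2 0.50, not called), a difference of 0.25 with the same total and of 0.0046 with RPL34.

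Ratios within each library, chosen after the values were seen and not tested, restate these differences relative to CCNE1. Their order follows from the differences above and is not separate evidence. CCNE1 relative to C19orf12 went from a log2 ratio of 0.48 ± 0.04 to 1.88 ± 0.00084, a shift of 1.41, and relative to POP4 and PLEKHF1 it shifted by 0.69 and 0.59. Relative to URI1 it shifted by -0.35, and relative to UQCRFS1 by -0.15 with overlapping libraries.

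**Figure D5:**
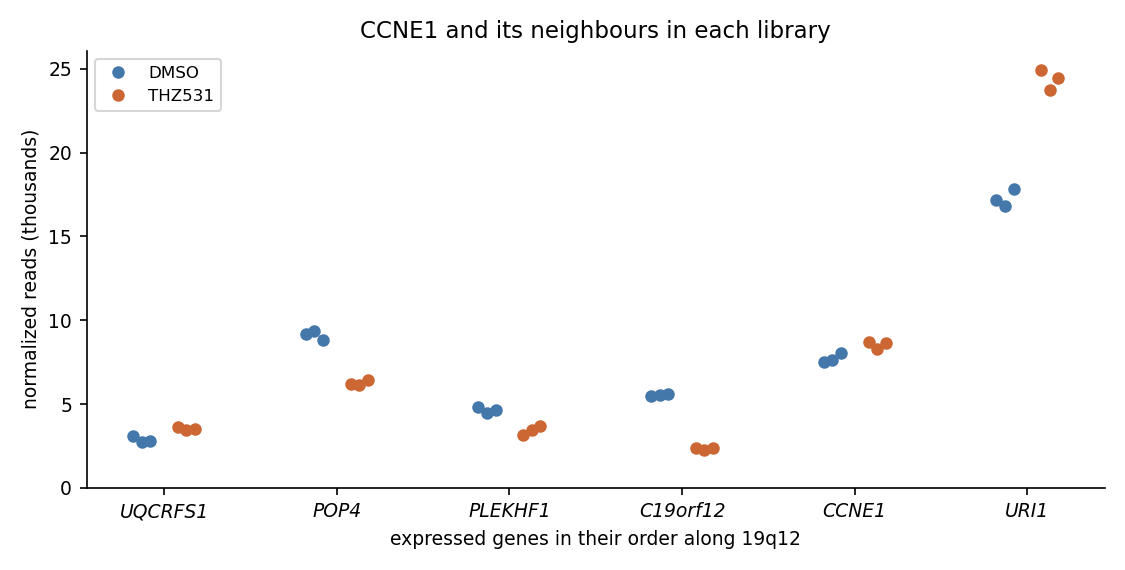
Normalized reads (in kiloreads, linear axis from 0) of CCNE1 and its 5 expressed neighbours in each DMSO (blue) and THZ531 (orange) library, in their order along the chromosome and not to genomic scale. C19orf12 falls from 5472 or more to 2355 or less, URI1 lies between 23764 and 24945 after THZ531, and CCNE1 changes little.

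Several members share bases with another locus, and whether the counting used strand is not stated in the sources used here, so reads of the shared stretch cannot be assigned with certainty. CCND1 overlaps LTO1 by 1399 bases on the opposite strand. LTO1 went from 2453 to 900, a log2 difference of -1.45 (adjusted p = 3.16e-11, limma with Benjamini-Hochberg), while CCND1 had a difference of -0.04. CCNE2 overlaps INTS8 by 1523 bases (log2 -0.58 for INTS8), and CCNA2 overlaps EXOSC9 by 578 bases (-0.0082 for EXOSC9). CCND2-AS1, which shares 2423 bases with CCND2, was at or near 0 in every library. The same held for 2 unnamed loci that share 1684 and 26 bases with CCND3.

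By genomic span of the locus the members ran from 5972 bases for CDK2 to 113961 bases for CCND3, whose canonical transcript spans only 6857 bases. By locus span 7 of the 10 fell between 10 and 35 kilobases. CDC25A, with 31272 bases, was the called gene among these 7, in a class where 10.4% of 4914 loci with 1 symbol rose. The canonical transcript of CDC25A has 15 exons and a longest intron of 6339 bases.

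The 3 expressed genes whose log2 values over the 6 libraries, centred on their means, lay closest to those of CCNE1 were HSPA9, a mitochondrial chaperone, FAM32A and SORBS3, an adaptor of focal adhesions, at Euclidean distances of 0.03, 0.04 and 0.04. Their log2 differences were 0.13, 0.14 and 0.16. The closeness to that of CCNE1 follows from the choice, which used the same values.

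The labelled tumour type was checked against 8 markers of serous ovarian carcinoma, and all 8 were expressed, with a summed value from 436915 to 447836 in DMSO and from 556080 to 568807 after THZ531. The keratins KRT7, KRT8 and KRT18 made up most of that sum, while the lineage factor PAX8 on the same list fell from 11272 to 1241 (log2 -3.18) and MUC16 had a difference of -0.46. Of 10 markers of leukocytes, endothelium and fibroblasts, 6 reached the expression minimum, with a summed value from 2151 to 2517 in DMSO and from 3776 to 4041 after THZ531, led by COL1A1. CD3E was at 0 in every library, and DCN and LUM were at or near 0. The part of these shifts in the members' values was not tested.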

How the data were processed

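The authors built polyA libraries (TruSeq Stranded mRNA, per the labels), mapped the reads to hg38 with STAR (version 2.7.5a in the submitters' processing notes), counted them on FAST DB genes with featureCounts and deposited DESeq2-normalized values, a signal equal to the read count divided by a size factor per library. The strand setting of the counting is not given in the sources used here. Every deposited value (100% per library) came out as a whole number of reads (tolerance 0.01 read), which gave back the counts. No per-sample column was left unused, and no library was a duplicate of another.

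Values were tested as log2(value + 1) with limma 3.58.1 (trended variance, no covariates) in R 4.3.3 over the 17568 loci that reached 10 in 3 or more libraries. On this scale changes of low genes are understated. Calls required a fold change of 1.5 or more together with an unadjusted p of 0.05 or less, and adjusted p-values are Benjamini-Hochberg values over all loci tested. The recovered read counts were tested with edgeR 4.0.16 and DESeq2 1.42.0 as alternatives. The tests were tried on simulated data with known changes. Intervals cover the spread between libraries.

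The members and the gene lists were chosen with earlier results of these data known. Named were the 10 members and, from each list, up to 4 called genes with the largest changes and a mean of at least 100. Also named were the expressed neighbours of CCNE1, loci without a symbol that overlap members, the 3 genes most like CCNE1, and RPL34. CCNF, CDK4, CDKN1B, WEE1, PKMYT1, CHEK1, FBXW7, RASA1, FAM53C and the overlapping or marker genes given by symbol lay outside this rule and were named after their values were seen. Promoter sequences are from RefSeq (GRCh38.p14), with entries for 6 of the 10 members, and gene structures from GENCODE v44. Ratios used log2(value + 1) differences within a library.

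Alternatives were other pseudocounts, minima, scalings and fold changes, the other tools, a replicate block and each library left out in turn.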

Additional observations from a re-analysis of the deposited data

How the results depend on the processing

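The count of members called was 1 (CDC25A, higher) with the deposited scaling. With RPL34 scaling it was 2, with 0 higher and 2 lower (CCNB1 and CDK2), and at a fold change of at least 2 it was 0. Of the listed genes, 7 were called at a fold change of at least 2, with 3 higher and 4 lower. The share of all expressed loci at that fold change was not computed, so these counts have no measure beside them. With the same total 5 listed genes were higher, beside 9.38% of all expressed loci. With RPL34 3 were higher and 23 lower, beside 6.14% and 42.8%. Signs turned with the same total for CCNE1 (-0.10), CCNE2 (-0.076) and CCNA2 (-0.23), and with RPL34 for CCNE1 (-0.35), CCNE2 (-0.33), CCND2 (-0.11), CCNA2 (-0.48), CDK1 (-0.014) and UQCRFS1 (-0.19). Among other genes given with values, CDK4 turned with the same total (-0.17) and RPL34 (-0.42), and WEE1 (-0.077) and CHEK1 (-0.028) with RPL34. CCNA2 also turned with the upper quartile (-0.0067) and edgeR (-0.0093). With libraries left out, CCNA2 ran from -0.021 (without DMSO replicate 2) to 0.060, CCND3 from -0.040 to 0.033 (without DMSO replicate 1), and the log2 ratio difference of CCNE1 to CCNE2 from -0.10 to 0.058 (without THZ531 replicate 2). For summary counts and ratios, 146 alternative values kept within 1.5 times the count or the direction of the ratio, 11 counts moved further and 2 ratios turned. For single genes 511 kept direction and side of the threshold, 14 turned, 13 lost and 6 gained the call.

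No pairing by replicate number was visible in the values. Same-numbered libraries had correlations of deviations of 0.0017, 0.0186 and -0.0393, and differently numbered libraries ran from -0.030 to 0.028. Such correlations cannot show whether the cultures were handled as pairs. With the replicate number as a block, 1 member was called, as without it. The direction of members near 0 cannot be settled without a measure of total RNA per cell, which these values do not hold, and CCND2 is limited by its read number.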
